A study of Glycyrrhiza uralensis with 6 samples.

Results

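The dominant unigenes of suspended licorice cells are those that took the largest share of the sequenced fragments. They were chosen by level: a unigene belonged to the set when its mean reached 1000 CPM (its estimated count over the library total, times 1000000) over the 3 libraries titled E or over the 3 titled C. This gave 147 of 116907 unigenes, or 0.126% of those listed. A unigene is a contig or contig cluster of a de novo assembly that stands for a gene, and the c and g numbers of its identifier give its assembly component and its number within it. RNA was measured by RNA-Seq in 6 libraries of suspended cells of *Glycyrrhiza uralensis* Fisch. The E-titled libraries (n = 3) are labelled as cells induced by methyl jasmonate (MeJA) at 0.5 µL per mL for 9 h. The study's methods give this dose as a final concentration instead, and the difference was not resolved here. The C-titled libraries (n = 3) are labelled as uninduced, and absolute ethanol at 0.4 µL per mL was given over the same time. For the E-titled libraries 0 µL of ethanol per mL is listed, so by the labels MeJA and ethanol differ together between the groups. The study's methods describe the ethanol as a control addition of equal volume, and do not give the solvent of the MeJA. Cells of both groups came from callus kept for 20 generations on solid medium and then grown for 3 weeks in liquid medium with NAA and 6-BA, an auxin and a cytokinin. The study's methods also list the auxin 2,4-D for the liquid medium, where the labels list it for the solid medium only. All libraries therefore describe callus-derived cultured cells and no organ of a plant.

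The names inside the files carried the opposite letter in 6 of 6 libraries, so that each E-titled file is headed as a C sample and the reverse. The order of the library totals matched the order of the study's listed read numbers in 4 of 6 ranks by the names inside the files, and in 0 of 6 ranks by the titles. The ratio of total to listed reads was nearly constant by the names inside the files (coefficient of variation 0.616% over the libraries), against 15.8% by the titles. Groups here follow the titles. Every direction below, read as MeJA against control, turns round if the names inside the files hold. The values of each titled library stay as printed. Totals ranged between 17041505 and 21670945 counted fragments. The labels do not say whether the libraries of a group came from separate cultures, so p-values measure only the spread between these samples.

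Methyl jasmonate is the volatile ester of jasmonic acid, a plant hormone of wounding and defence. Inside the cell jasmonate is perceived as its isoleucine conjugate by the F-box protein COI1, which leads to the breakdown of JAZ repressors and frees MYC transcription factors. In cultured plant cells it is widely used to raise the output of secondary metabolites, which in licorice include flavonoids and the triterpenoid glycyrrhizin. In an RNA-Seq library the fragments are a fixed budget: when a few transcripts take more of it, all others take less, whatever their amount in the cell. The share of the dominant unigenes therefore describes the composition of the mRNA pool and also bears on how every other unigene is scaled. The files pair no unigene with a gene name or a sequence, so the unigenes are given by identifier, and neither their functions nor markers of a cell type could be checked. In bulk RNA, fewer cells of a kind and less RNA per cell cannot be told apart.

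The 147 unigenes took 12.5%, 17.8% and 17.7% of the fragments in the E-titled libraries, against 27.3%, 29.6% and 29.5% in the C-titled libraries. The means were 16.0% ± 3.03 in the E-titled libraries and 28.8% ± 1.27 in the C-titled libraries (SD, n = 3 each), a difference of -12.8 percentage points. All C-titled libraries lay above all E-titled ones, and the direction between MeJA and control turns round under the names inside the files. Because the levels chose the members, this gap is a description and carries no test. The means of the E-titled libraries passed 77 of the members and those of the C-titled libraries passed 125, with 55 passed by both, 22 by the E-titled mean only and 70 by the C-titled mean only.

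**Figure D1:**
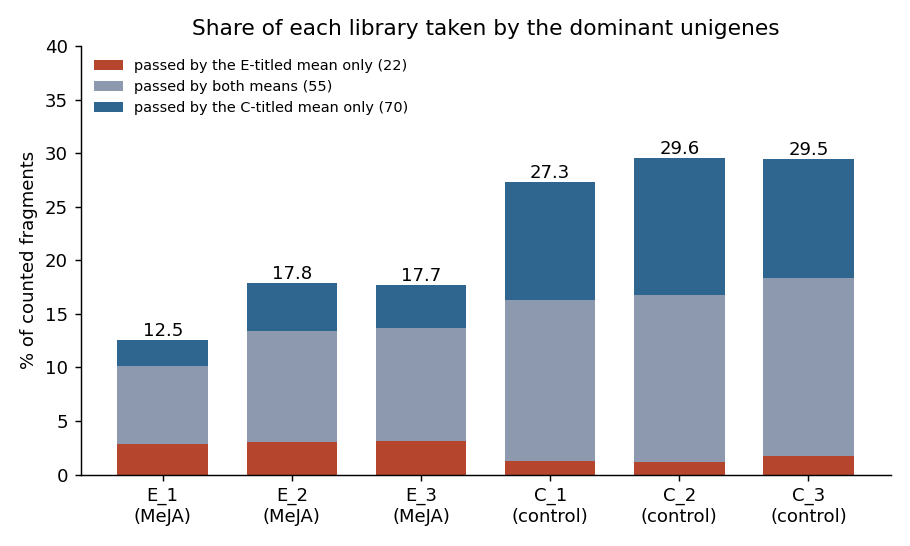
Percent of the counted fragments of each library on the 147 dominant unigenes, stacked by the group mean through which they reached 1000 CPM, with the 3 E-titled (MeJA) libraries left of the 3 C-titled (control) libraries. The full bars stand between 12.5% and 17.8% in the E-titled libraries and between 27.3% and 29.6% in the C-titled libraries, with the titles opposite to the names inside the files.

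The rule forces a difference on the sets passed by 1 mean only, but not on the set passed by both. The 55 unigenes passed by both means took 9.41% ± 1.83 of the fragments in the E-titled libraries and 15.8% ± 0.811 in the C-titled libraries (SD, n = 3 each). The rule did not use the size of that gap, but it did use the levels, and no test is given. The 70 passed by the C-titled mean only took 3.59% ± 1.08 in the E-titled libraries and 11.6% ± 0.979 in the C-titled libraries. The 22 passed by the E-titled mean only took 3.01% ± 0.149 in the E-titled libraries and 1.35% ± 0.297 in the C-titled libraries. The set dominant by the C-titled mean only was thus the one with the widest gap in points, and its direction, like that of the other sets, depends on the titles. Library E_1 stood lowest among the E-titled libraries for the whole set, with 7.29% on the 55 shared unigenes against 10.4% and 10.5% in E_2 and E_3.

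How concentrated each library was could also be measured without the threshold and the group labels, by ranking the unigenes of each library on its own counts. These are the counts that the rule used, so the measures are not independent of the gap above. The 10 highest unigenes of a library took 2.73%, 4.12% and 3.60% of the fragments in the E-titled libraries, against 8.98%, 8.66% and 8.94% in the C-titled libraries. The 100 highest took 15.3% ± 1.92 in the E-titled libraries and 25.7% ± 0.956 in the C-titled libraries (SD, n = 3 each). It took 1338, 1131 and 1026 unigenes to carry 50% of an E-titled library, against 626, 496 and 533 for a C-titled library. The effective number of unigenes, the exponential of the Shannon entropy of the shares, was 6114 ± 632 in the E-titled libraries and 3323 ± 289 in the C-titled libraries (SD, n = 3 each). In each of these 4 measures the groups did not overlap, and the C-titled libraries were the more concentrated. These are the controls by the titles and the MeJA libraries by the names inside the files. The two-sided exact permutation test gave p = 0.1 for each measure, and 0.1 after adjustment over the 4 measures. This is the smallest p that 3 against 3 libraries allow when shuffled freely. The shuffling ignored the replicate numbers, by which libraries correlated over all tested unigenes.

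**Figure D2:**
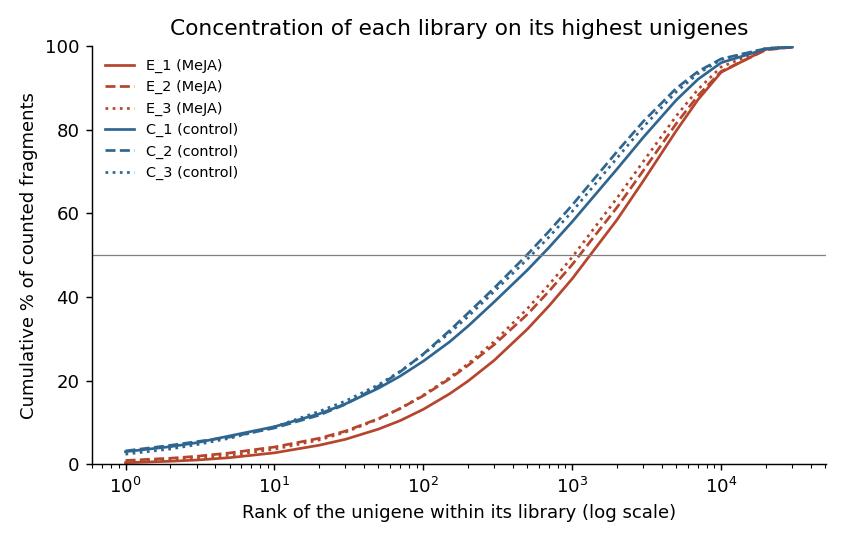
Cumulative percent of the counted fragments (vertical axis) against the number of unigenes taken from the highest down in each library (horizontal axis, log scale), 1 line per library. The lines of the 3 C-titled libraries run above those of the 3 E-titled libraries and reach 50% after 496 to 626 unigenes, against 1026 to 1338 for the E-titled libraries, with the titles opposite to the names inside the files.

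One unigene stood apart. The unigene c35278_g1 had 1424, 4118 and 1770 CPM in the E-titled libraries, against 30068, 31969 and 24130 CPM in the C-titled libraries. It ranked first in all 3 C-titled libraries, where it took 3.01%, 3.20% and 2.41% of the fragments, and stood at ranks 24, 4 and 28 in the E-titled libraries. Its mean CPM was 11.8 times higher in the C-titled libraries, or 18.0 times without E_2 and 9.76 times without E_1. The log2 fold change of the E-titled over the C-titled libraries was -4.16 (standard error 0.74) by edgeR. It was the only unigene of its component, with an effective length of 1401 bases. Per length it also led the C-titled libraries, with a mean of 1743 FPKM (fragments per kilobase and per 1000000 fragments) in the E-titled libraries and 20493 FPKM in the C-titled libraries. Its share of all dominant fragments was 1.52% in the E-titled libraries and 9.98% in the C-titled libraries. Without it the other members still took 15.8% ± 2.94 in the E-titled libraries and 25.9% ± 1.43 in the C-titled libraries (SD, n = 3 each), with the direction again set by the titles.

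Below it the C-titled libraries were led by unigenes at levels of several times the threshold. Among the 6 highest by the C-titled mean was also c5327_g1, at 7747 CPM, which is described with the E-titled means below. The unigene c10547_g1 had 1133, 2391 and 1952 CPM in the E-titled libraries, against 7470, 13210 and 5863 CPM in the C-titled libraries. The unigene c60444_g5 had 637, 959 and 387 CPM in the E-titled libraries, against 12039, 3165 and 10328 CPM in the C-titled libraries, and reached 1000 CPM in the C-titled libraries only. For both, every C-titled library lay above every E-titled library. The unigene c61077_g7 had 1258, 2111 and 882 CPM in the E-titled libraries, against 8906, 8895 and 4558 CPM in the C-titled libraries. The unigene c58672_g1 had 1347, 2037 and 1117 CPM in the E-titled libraries, against 4502, 4926 and 8101 CPM in the C-titled libraries. These also did not overlap between the groups. The log2 fold changes of these 4 unigenes, without c5327_g1, ran between -4.24 and -2.56 by edgeR, negative because the titles place the higher libraries under C.

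The unigene at the head of the E-titled means, c5327_g1, showed how far single libraries can carry a dominant unigene. It had 566, 9076 and 5001 CPM in the E-titled libraries, against 9303, 1576 and 12361 CPM in the C-titled libraries. Its mean was 4881 CPM in the E-titled libraries and 7747 CPM in the C-titled libraries, where it was also among the 6 highest. The groups overlapped throughout, and the highest library was 16.0 times the lowest among the E-titled and 7.84 times the lowest among the C-titled libraries. With an effective length of 6513 bases it was the second longest member, so its lead in fragments is not a lead per length. The unigene c37902_g1 was steadier, with 2974, 4653 and 3543 CPM in the E-titled libraries, against 2890, 2224 and 4076 CPM in the C-titled libraries. The unigene c55513_g1 had 3721, 2186 and 4733 CPM in the E-titled libraries, against 1851, 1634 and 3907 CPM in the C-titled libraries, and was the highest unigene of E_1. Both overlapped between the groups. The unigene c60369_g1 had 2247, 3018 and 4906 CPM in the E-titled libraries, against 3010, 5396 and 7209 CPM in the C-titled libraries. The unigene c60040_g1 had 1906, 3508 and 3337 CPM in the E-titled libraries, against 1834, 5437 and 5152 CPM in the C-titled libraries. In each of these the higher and lower libraries of a group lay further apart than the group means. The unigene c51432_g1 was the exception among the 6 highest, with 2281, 5326 and 3044 CPM in the E-titled libraries, all above the 1004, 1168 and 965 CPM of the C-titled libraries, a direction that depends on the titles.

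**Figure D3:**
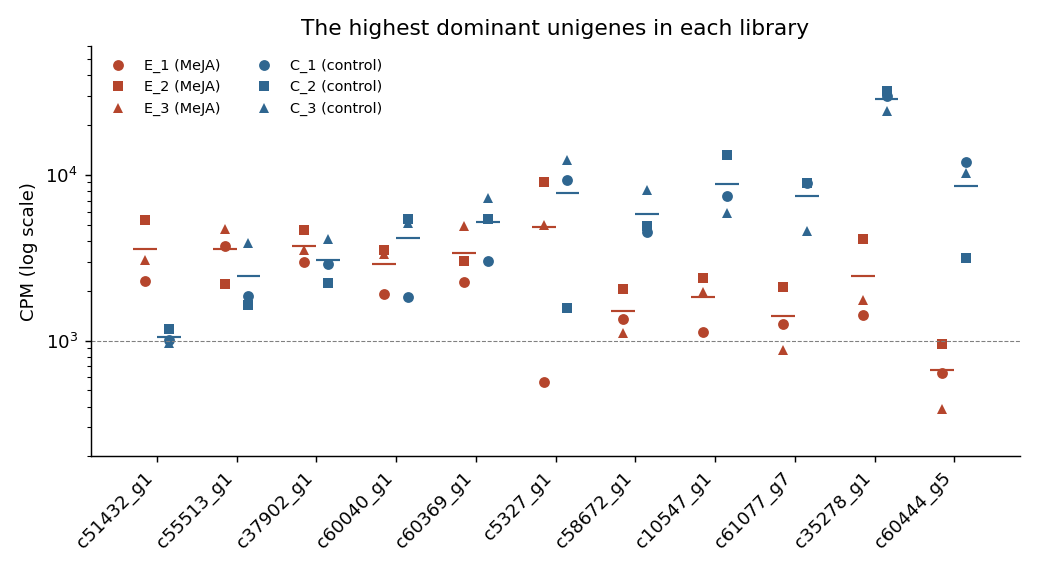
CPM (log scale) in each of the 6 libraries for the members with the highest group means, 1 point per library and a short line at each group mean, E-titled (MeJA) points left of C-titled (control) points. The points of c35278_g1 lie between 1424 and 4118 CPM in the E-titled libraries and between 24130 and 31969 CPM in the C-titled libraries, whereas those of c5327_g1 overlap between the groups, with groups by title, opposite to the names inside the files.

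The heads of the 2 lists shared few unigenes. Of the 10 highest members by the E-titled means and the 10 highest by the C-titled means, 4 were the same. These 10 took 3.16% of the E-titled libraries and 8.54% of the C-titled libraries, each group by its own list. No unigene was among the 10 highest of all 6 libraries (0 of 147), while 3 were among the 10 highest of every E-titled library and 3 among those of every C-titled library. The 39 highest members carried 50% of the dominant fragments in the E-titled libraries and the 32 highest did so in the C-titled libraries. Single libraries held 62, 86 and 94 unigenes at 1000 CPM or more under the E titles, against 107, 143 and 128 under the C titles. Only 19 unigenes reached 1000 CPM in every library, of 232 that did so in any. Which group held the larger shares and numbers rests on the titles.

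The set passed by both means held unigenes with like levels in both groups beside c35278_g1. The group means were within 2-fold of each other for 44 of the 55, and 19 of them were at 1000 CPM or more in all 6 libraries. The unigene c48812_g1 had 2025, 2603 and 2027 CPM in the E-titled libraries, against 1126, 1494 and 1330 CPM in the C-titled libraries. The unigene c37573_g1 had 2333, 2318 and 2191 CPM in the E-titled libraries, against 1527, 2092 and 1451 CPM in the C-titled libraries. Both lay higher in every E-titled library by CPM, under the titles. The edgeR log2 fold change was 0.16 (standard error 0.42) for c48812_g1 and -0.16 (standard error 0.43) for c37573_g1, so that the direction of c37573_g1 depended on the scaling. Together with c55513_g1 they had the log2 fold changes closest to 0 among the 19.

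The 22 unigenes passed by the E-titled mean only held the members with the largest ratios towards the E titles. The unigene c82122_g1 had 1949, 1561 and 1952 CPM in the E-titled libraries, against 128, 11.2 and 59.8 CPM in the C-titled libraries. Its mean was 27.5 times higher in the E-titled libraries, the largest such ratio of the 147. It was 51.3 times higher without C_1 and 19.4 times higher without C_2. The unigene c51420_g1 had 1301, 985 and 1708 CPM in the E-titled libraries, against 83.4, 67.7 and 164 CPM in the C-titled libraries. The unigene c3113_g1 was even across libraries, with 1304, 1193 and 1081 CPM in the E-titled libraries, against 159, 153 and 180 CPM in the C-titled libraries. The unigene c60958_g1 had 3433, 2007 and 2253 CPM in the E-titled libraries, against 524, 356 and 715 CPM in the C-titled libraries. None of these 4 overlapped between the groups, and all 4 would be higher in the control by the letters inside the files. The edgeR log2 fold change was 4.30 for c82122_g1 (5.06 without C_1 and 3.78 without C_2), 3.11 for c51420_g1, 2.28 for c3113_g1 and 1.70 for c60958_g1.

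The 70 unigenes passed by the C-titled mean only reached further from the diagonal. The unigene c54790_g1 had 1.94, 5.81 and 17.8 CPM in the E-titled libraries, against 350, 2018 and 1166 CPM in the C-titled libraries. The unigene c53020_g1 had 5.41, 50.9 and 8.47 CPM in the E-titled libraries, against 656, 2482 and 461 CPM in the C-titled libraries. The unigene c43047_g1 had 11.3, 83.9 and 26.8 CPM in the E-titled libraries, against 1154, 3023 and 493 CPM in the C-titled libraries. In all 3, library C_2 was the highest, and the groups did not overlap. The unigene c60800_g6 had 41.7, 36.6 and 24.9 CPM in the E-titled libraries, against 318, 2476 and 575 CPM in the C-titled libraries, and held 36.8% of the counts of its component. The edgeR log2 fold changes of these 4 ran between -7.69 and -5.70, the sign resting on the titles. That of c60800_g6 was -2.78 with counts summed per component and -4.28 without C_2, against -5.70. That of c54790_g1 was -6.97 without C_2 and -8.94 without E_3, against -7.69. Without C_2, c53020_g1 stood at -5.22 and c43047_g1 at -4.83, and without E_2 they stood at -8.00 for c53020_g1 and -6.89 for c43047_g1, against -6.48 for c53020_g1 and -5.91 for c43047_g1 with all libraries. At least 4-fold lower group means in the E-titled libraries were seen for 30 of the 147 members, and at least 4-fold higher ones for 5. Of the 70, C_2 was the highest library for 35, C_1 for 21 and C_3 for 14.

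**Figure D4:**
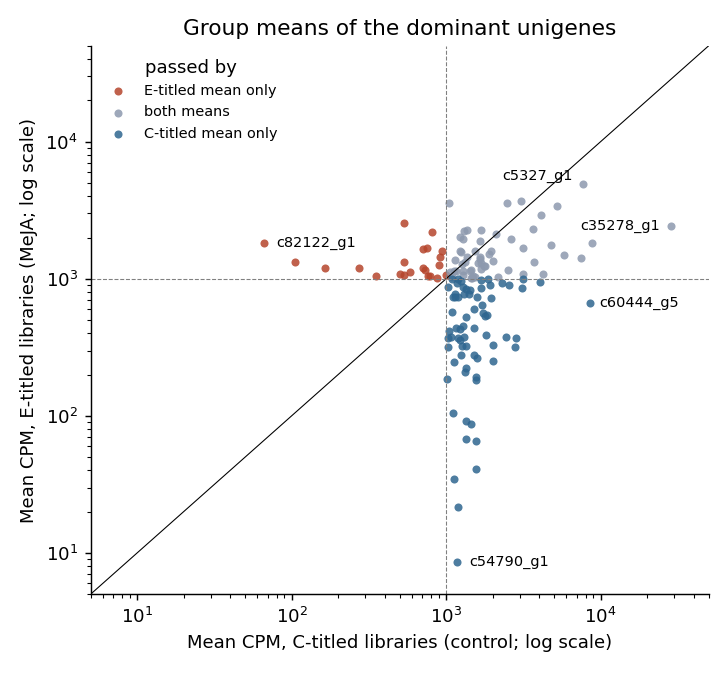
Mean CPM of the 147 dominant unigenes in the 3 E-titled (MeJA) libraries, vertical axis, against the mean in the 3 C-titled (control) libraries, horizontal axis, both on log scales, with dashed lines at 1000 CPM and the diagonal of equal means. The empty lower left corner is the rule itself; c35278_g1 lies far below the diagonal at 2437 and 28722 CPM, and c82122_g1 far above it at 1821 and 66.3 CPM, sides that swap under the names inside the files.

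The gap of -12.8 points was the sum of 107 members with a lower share in the E-titled libraries, together -15.4 points, and 40 with a higher share, together 2.59 points. The unigene c35278_g1 made -2.63 points, or 17.1% of the lower side. The next were c60444_g5 with -0.785 points, c10547_g1 with -0.702, c61077_g7 with -0.604 and c58672_g1 with -0.434. These 5 made 33.5% of the lower side, and 15 members made 50% of it. On the higher side c51432_g1 made 0.250 points, c60958_g1 0.203, c82122_g1 0.175, c46415_g1 0.137 and c51420_g1 0.123. These 5 made 34.3% of the higher side. Apart from c35278_g1 the gap was thus spread over many unigenes, and all signs turn round under the names inside the files.

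**Figure D5:**
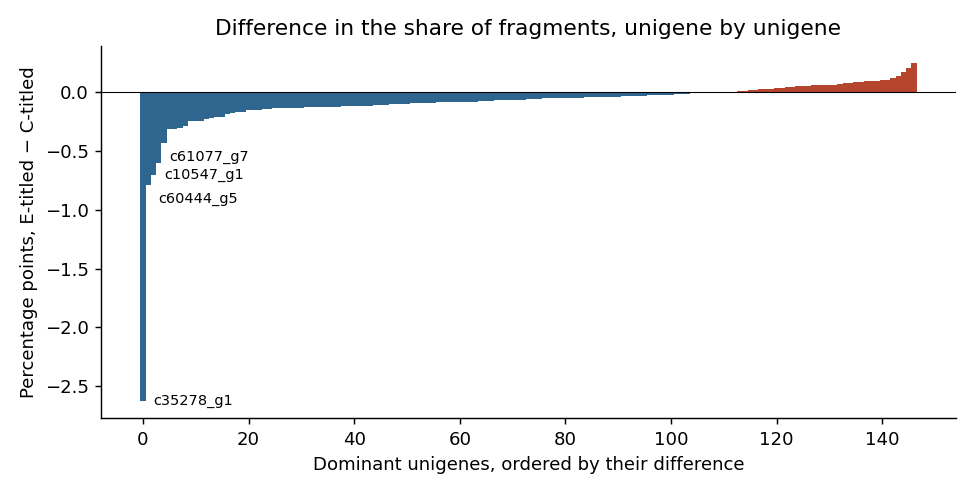
Difference in the mean share of fragments, E-titled (MeJA) minus C-titled (control) libraries in percentage points, for each of the 147 dominant unigenes in order of the difference. The bar of c35278_g1 reaches -2.63 points, the next 3 lie between -0.785 and -0.604, and the 40 positive bars add up to 2.59 points, with signs that turn round under the names inside the files.

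Because the shares add up to a fixed total, the direction of a dominant unigene depends on how libraries are scaled. Over the tested unigenes that are no members, the median log2 ratio of the E-titled over the C-titled means was 0.56 by library totals and 0.33 when the members were left out of the totals. It was -0.0046 with TMM factors, edgeR's scaling by a trimmed mean of ratios, which places the bulk of unigenes near 0 by construction. A member at equal mean CPM in both groups therefore lies below the median of the others in the E-titled libraries. By mean CPM 40 members were higher and 107 lower in the E-titled libraries, whereas by the TMM-scaled edgeR fit 21 were above 0 and 126 below. The 19 members that changed sign were all higher by CPM and below 0 by edgeR. Of all tested unigenes 67.3% were higher and 32.7% lower by mean CPM. The median edgeR log2 fold change was -1.23 over the members and -0.01 over the 24646 tested unigenes. All of these signs follow the titles and are opposite under the names inside the files.

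All 147 members passed the filter on low counts, and edgeR called 5 higher and 64 lower in the E-titled libraries at an adjusted p under 0.05, with 78 not called. Among all tested unigenes 14.3% were called higher and 12.8% lower, or 24.7% and 7.39% with total counts as the only scaling. With the replicate number as a block 5 members were called higher and 79 lower, and 33.9% of all tested unigenes were called in either direction. Since the levels in these libraries chose the members, nothing is read from the comparison. All 5 called higher belonged to the 22 of the E-titled mean only. Of the 64 called lower, 53 belonged to the 70 of the C-titled mean only and 11 to the 55 of both. By the way they were chosen, the 22 had higher and the 70 lower mean CPM in the E-titled libraries. Nothing is therefore read from this split of the calls. The 5 called higher were c82122_g1, c51420_g1, c3113_g1, c60958_g1 and c44498_g1, the last named for completeness and not by the rule. The count of 5 was 3 without library C_2, and c60958_g1 was not called without E_1, without C_1 or without C_2. By CPM, 18 members lay higher in all E-titled than in all C-titled libraries and 63 lower, with 66 overlapping, beside 36.5% higher and 11.7% lower among all tested unigenes. The calls turn round in direction if the names inside the files hold.

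Membership depended on single libraries for some unigenes. Every library of a group whose mean passed was itself at 1000 CPM or more for 83 of the 147, and 10 members reached 1000 CPM in 1 library only. One library gave over 50% of its group's sum for 18 members, 6 of them through C_2 and 5 through C_3. The most extreme was c59569_g2, with 329, 3851 and 597 CPM in the E-titled libraries, where E_2 held 80.6% of the sum, against 2539, 818 and 358 CPM in the C-titled libraries. Its groups overlapped. Leaving out each library in turn kept 118 of the 147 as members every time, and 29 dropped out without some library, at most 10 at once and then without C_2. The median coefficient of variation within groups was 34.6% over the members in the E-titled and 33.7% in the C-titled libraries. Over all tested unigenes it was 35.5% and 39.1%. The tested unigenes include many with far lower counts, so these spreads are not compared at like levels.

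Just inside the threshold stood c11465_g1, with 905, 899 and 1218 CPM in the E-titled libraries, against 681, 665 and 1282 CPM in the C-titled libraries. The other was c46720_g1, with 191, 236 and 128 CPM in the E-titled libraries, against 1236, 1153 and 653 CPM in the C-titled libraries. Just outside it stood c61791_g4, with 247, 529 and 768 CPM in the E-titled libraries, against 491, 1544 and 924 CPM in the C-titled libraries. The other was c42006_g1, with 1367, 652 and 908 CPM in the E-titled libraries, against 167, 67.4 and 252 CPM in the C-titled libraries. The means that decided were 1007 and 1014 CPM for the first pair and 986 and 976 CPM for the second.

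The same rule was also applied to the libraries numbered with 2 of the 3 replicate numbers and the sets were read in the libraries left out. In libraries numbered 1, the 155 unigenes chosen from the others took 12.5% in E_1 and 26.8% in C_1. In libraries numbered 2, 146 unigenes took 17.6% in E_2 and 27.9% in C_2. In libraries numbered 3, 154 unigenes took 17.5% in E_3 and 29.1% in C_3. The gap was of like size in these left-out libraries, but 138 of the 155, 132 of the 146 and 139 of the 154 unigenes were members of the full set. The labels do not say whether the left-out libraries came from separate cultures. These values are therefore a description and carry no test. The sets passed by the C-titled mean only held 64, 68 and 86 unigenes, of which 60, 58 and 78 were lower in the left-out E-titled library than in the left-out C-titled one. Over all tested unigenes that share was 37.4%, 30.4% and 34.0%. The sets passed by the E-titled mean only held 24, 25 and 25 unigenes, of which 18, 24 and 22 were higher in the left-out E-titled library, beside 62.6%, 69.6% and 66.0% of all tested unigenes. These directions, too, follow the titles. The tested unigenes include many with far lower counts, so the shares are not at like levels and nothing is read from them.

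Levels can be compared between unigenes only per length. The effective length, recovered from the count and the FPKM, had a median of 1718 bases over the members, with quartiles of 1250 and 2508 bases and a range of 108 to 7663. A length could be recovered for only 66.5% of the tested unigenes, so a comparison of the members' lengths with all others is void. Of the 147 members 77 were also among the 114 unigenes at 1000 TPM, the FPKM rescaled to a sum of 1000000, which is 52.4% of the members and 67.5% of the 114. Per length, c53139_g1 led the E-titled libraries with a mean of 9601 FPKM, against 4240 FPKM in the C-titled libraries. At an effective length of 176 bases it was the second shortest member, and its level per length rests on that length. The unigene c37902_g1 followed with 8205 FPKM in the E-titled libraries and 6726 FPKM in the C-titled libraries. In the C-titled libraries c35278_g1 was followed by the shortest member, c44411_g1 at 108 bases, with 640 FPKM in the E-titled libraries and 12325 FPKM in the C-titled libraries. In fragments c44411_g1 had 51.1, 94.9 and 58.1 CPM in the E-titled libraries, against 1159, 1649 and 1216 CPM in the C-titled libraries, without overlap and in a direction that depends on the titles. The longest member, c42727_g1 at 7663 bases, had 785, 1709 and 1722 CPM in the E-titled libraries, against 1599, 1271 and 2112 CPM in the C-titled libraries, and its groups overlapped.

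A de novo assembly can split 1 gene over several unigenes of a component. Of the members 62 shared their component with another unigene (42.2%, beside 35.3% of the tested unigenes), and 30 held under 90% of their component's counts. Their counts are uncertain to the extent that fragments were divided between related sequences. The 147 members lay in 143 components, 4 of which held 2 members each. In 1 of these, c56768_g2 had 1348, 1528 and 3016 CPM in the E-titled libraries, against 3291, 2117 and 2491 CPM in the C-titled libraries. Its partner c56768_g3 had 715, 1030 and 1677 CPM in the E-titled libraries, against 990, 1040 and 1839 CPM in the C-titled libraries. Both pairs of groups overlapped. The unigene c56725_g1 had 587, 993 and 1965 CPM in the E-titled libraries, against 761, 1496 and 2808 CPM in the C-titled libraries. Its partner c56725_g2 had 979, 1391 and 2446 CPM in the E-titled libraries, against 359, 1084 and 1401 CPM in the C-titled libraries. Their edgeR log2 fold changes had opposite signs, at -1.08 for c56725_g1 and 0.17 for c56725_g2, neither of them called. The unigene c53041_g1 had 922, 1400 and 1115 CPM in the E-titled libraries, against 1859, 615 and 913 CPM in the C-titled libraries. Its partner c53041_g2 had 1473, 1654 and 1793 CPM in the E-titled libraries, against 994, 284 and 850 CPM in the C-titled libraries, where every E-titled library was higher under the titles.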

How the data were processed

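RNA-Seq libraries were made from poly-A RNA of 6 samples of suspended *G. uralensis* cells, 3 per group. The authors had them sequenced on an Illumina platform and deposited, per library, the expected count of each unigene (estimated by RSEM, not normalized) and its FPKM. CASAVA and RSEM are named in the submitters' processing notes. For the assembler, aligner, filters and tool versions the entry is: not given in the sources used here. Samples were grouped by title, and the names inside the files carry the opposite letter.

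CPM was computed from the deposited expected counts over each library total (17041505 to 21670945). Rounded expected counts went into edgeR's quasi-likelihood test (version 4.0.16, R 4.3.3; low counts removed by filterByExpr at its minimum of 10, TMM scaling, Benjamini-Hochberg adjustment over 24646 unigenes, threshold 0.05, two-sided). Standard errors beside edgeR log2 fold changes were worked back from the test's F statistic, since the test itself gives none. Each is the absolute log2 fold change over the square root of F. DESeq2 1.42.0 and limma 3.58.1 on log2(FPKM + 1) or log2(FPKM + 0.1) were alternatives, and the fit was tested on simulated data. Concentration measures were compared with two-sided exact permutation tests (scipy 1.17.1). Effective lengths were recovered from counts of at least 100 at an FPKM of at least 1. Replicates differed beyond counting noise (chi-square per degree of freedom at least 71.8), so none was a copy of another library of its group. This does not show that they came from separate cultures. Deviations of libraries with the same number correlated (r = 0.250, 0.271 and 0.285 over tested unigenes, against -0.378 to 0.123 for other pairs), which meets the limit set for pairing. Over the members alone the same-number r was 0.062, 0.210 and 0.358, and other pairs reached 0.243, so number 1 does not stand out there. The calls and permutation tests reported ignore the pairing, and the block is an alternative.

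The members, the lists and the rules were chosen with earlier results of these data known. Named were the 6 members highest in each group, the 4 largest and 4 smallest ratios, the 3 closest to 0 among those at 1000 CPM in all libraries, the 3 resting most on 1 library, the 2 unigenes on each side of the threshold, 3 components with several members, and the 2 shortest and 2 longest. In addition c44498_g1 and c46415_g1 complete counts and were named after their values were seen.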

Additional observations from a re-analysis of the deposited data

How the results depend on the processing

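Directions follow the titles and are opposite by the names inside the files. The members called higher by edgeR numbered 5, against 9 with limma at either pseudocount and 9 with total counts as the only scaling, and 3 to 5 without single libraries. Those called lower numbered 64, and 46 to 82 over all alternatives. Outside the main fit, the block and total counts, the share called over all tested unigenes is not given. Nothing is therefore read from these counts. With the replicate number as a block the calls were 5 higher and 79 lower, and every call without it was kept. The rule gave 378 members at 500 CPM, 38 at 2000 CPM and 83 when every library of a passing group had to reach 1000 CPM. Their share of the E-titled libraries (16.0%) was then 27.7%, 6.65% and 11.3%, and that of the C-titled libraries (28.8%) 41.8%, 15.1% and 21.2%. The C-titled share was 31.7% with counts summed per component and 23.9% by FPKM. Leaving out single libraries gave 15.2% to 18.0% in the E-titled libraries and 28.4% to 30.4% in the C-titled libraries. The median log2 ratio of the other unigenes (0.56 by totals) was -0.0046 with TMM factors, -0.042 with RLE factors, 0.33 with totals without the members, and 0.49 to 0.70 without single libraries, highest without C_1. The values with TMM and RLE factors lie near 0 by construction. The 4 concentration measures kept their direction in every alternative run. Some members near 0 changed sign. For c37902_g1 (-0.29) the log2 fold change was 0.30 with limma at either pseudocount, 0.28 with total counts, 0.050 with totals without the members and between -0.45 and 0.018 without single libraries. For c55513_g1 (-0.03) these were 0.57, 0.53, 0.28 and -0.36 to 0.51, and 0.012 with no filter. For c37573_g1 (-0.16) they were 0.45, 0.43, 0.19 and -0.27 to 0.081. For c59569_g2 (-0.18) they were 0.010 and 0.011 by limma, 0.36, 0.17 and -1.85 to 0.80. For c11465_g1 (-0.37) limma gave 0.26, total counts 0.20 and single libraries left out -0.59 to 0.056. For c56725_g2 (0.17) the component sum gave -0.50 and single libraries left out -0.35 to 0.60. For c53041_g1 (-0.50) the component sum gave 0.076, limma 0.16 and total counts 0.022. The unigene c51432_g1 (1.17, not called) was called with DESeq2, limma, no filter and both scalings by totals, but was 0.59 with counts summed per component and 0.83 without E_2, not called, and c58672_g1 was not called with limma. The cause of these changes was not tested. With 3 libraries per group an exact permutation test cannot go below p = 0.1.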
